A study of Mus musculus with 2 samples.

Results

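Monocytes and macrophages were picked out of single-cell RNA sequencing (scRNA-Seq) of mouse long-bone periosteum by their own transcript counts, and 203 of 9169 quality-passing cells were chosen, 163 of 6276 in replicate library 1 and 40 of 2893 in replicate library 2. A chosen cell had 3 or more unique molecular identifiers (UMIs, counted transcript molecules) of Lyz2 and at least 1 UMI of 2 or more of Csf1r, Ly6c2, Cd68 and Ccr2. It also had at most 1 UMI of Retnlg and of Cd79a and under 5 UMIs of Ltf and of Elane, limits set on genes of mature neutrophils, B cells, later neutrophil precursors and early granulocyte precursors. The chosen cells made up 2.60% of library 1 (exact binomial 95% interval, 2.22–3.02) and 1.38% of library 2 (0.990–1.88). The remaining quality-passing cells, 6113 and 2853, are called other cells.

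The cells came from the femurs and tibias of wild-type C57BL6 mice that were 4 weeks old, and both libraries are of this 1 condition. Periosteal cells were released with collagenase, sorted by staining for CD45, CD31, Ter-119 and DAPI to keep cells negative for the blood and endothelial markers, and run on the 10x Genomics platform. Neither the number of mice per library nor whether the libraries came from separate mice is given, so each library is shown apart and no test between groups of samples could be made. The study asked about skeletal stem cells of the periosteum, with LRP1 and CD13 as its markers of interest, and left out blood-lineage cells before clustering, so the chosen cells are of a kind that the sort was meant to remove. The libraries differed in depth: the chosen cells held 2361404 UMIs in library 1 and 476508 in library 2, with medians of 11779 and 8866.5 UMIs per cell against 7991 and 6212 in other cells. All intervals below cover counting error only. The libraries shared 8 barcodes, of which 7 passed the quality limits in both, and 0 of them belonged to a chosen cell.

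Counts for reporter transcripts did not follow the wild-type label. UMIs assigned to tdTomato were found in 53 of 163 chosen cells (32.5%) of library 1 and in 12 of 40 (30.0%) of library 2. Among other cells the share was 15.9% and 29.2%, and among cells with 2 or more Cd79a UMIs, a B-lineage set, it was 15.4% and 20.4%. UMIs assigned to EGFP were at 0 in all chosen cells, which at 3 counts allows a share of cells with a UMI of up to 1.84% and 7.50%, and at 0 in library 1 as a whole, whereas 170 other cells of library 2 (5.96%) held 6837 of them. Both Xist and the Y-linked Ddx3y were found among the chosen cells of each library, at 433 and 162 counts per 1000000 UMIs (CPM) for Xist and at 20.3 and 10.5 CPM for Ddx3y.

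Monocytes are made in bone marrow from precursors shared with granulocytes, circulate in blood, and enter tissues where they can become macrophages or dendritic cells. Classical mouse monocytes carry Ly6C and the chemokine receptor CCR2, whereas patrolling monocytes have lost Ly6C and depend on the nuclear receptor NR4A1. Resident macrophages clear dying cells and debris, secrete the complement recognition protein C1q, and in bone share the CSF1 receptor with osteoclasts, the cells that resorb bone.

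The 5 positive genes of the rule are given as a description, because they chose the cells. Lyz2, which encodes lysozyme M of granulocytes and mononuclear phagocytes, was at 19010 and 21807 CPM in the chosen cells and at 1657 and 761 CPM in other cells of libraries 1 and 2. Single cells ranged from 3 to 657 Lyz2 UMIs (median 297) in library 1 and from 5 to 986 (median 192.5) in library 2. Csf1r, the receptor for the growth factors CSF1 and IL-34, was at 171 and 214 CPM. Cd68, a lysosomal membrane glycoprotein of macrophages, was at 166 and 434 CPM. Ccr2, which draws monocytes out of the marrow, was at 473 and 176 CPM, and Ly6c2, which encodes the Ly6C surface protein, was at 1218 and 659 CPM. Library 1 thus had the higher levels of Ccr2 and Ly6c2 and library 2 the higher level of Cd68.

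Few cells stood close to the Lyz2 threshold, but with no UMI of Retnlg, Ltf, Elane or Cd79a allowed, 90 cells of library 1 and 35 of library 2 would have been chosen. At exactly 3, 4 and 5 Lyz2 UMIs there were 5, 3 and 2 chosen cells in library 1 and 0, 0 and 1 in library 2, and just outside, at 1 and 2 UMIs with every other condition met, there were 18 and 8 cells in library 1 and 2 and 1 in library 2. The number of lineage genes mattered more. Of the chosen cells, 31, 34 and 98 had a UMI of 2, 3 and all 4 lineage genes in library 1, and 12, 14 and 14 did in library 2. Cells that met the other conditions with 0 or 1 lineage gene numbered 71 and 49 in library 1 and 12 and 12 in library 2.

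B-lineage cells, which should lack these genes, were read for comparison. Their set was drawn by Cd79a alone, and in both libraries it overlaps the neutrophil-lineage sets described below. In library 1 it held 3519 Ltf and 4729 Elane UMIs. Its shares are therefore not a measure of free RNA alone. Among 2837 and 1340 cells with 2 or more Cd79a UMIs, with medians of 4074 and 4159 UMIs, a Lyz2 UMI was found in 22.8% and 7.99%. A Csf1r UMI was found in 0.60% and 0.15% of them, against 84.0% and 82.5% of the chosen cells. For Cd68 the shares were 3.98% and 0.82% against 83.4% and 97.5%. The pan-leukocyte gene Ptprc, which encodes CD45 and was not part of the rule, was found in 96.3% and 80.0% of the chosen cells and in 55.1% and 40.8% of the B-lineage cells. With every cell thinned to 1000 UMIs, those shares were 37.8% and 28.9% for the chosen cells and 16.6% and 12.1% for the B-lineage cells. Stromal cells, which lack CD45, gave the background: among 101 and 373 other cells with 100 or more Col1a1 UMIs and fewer than 2 Cd79a UMIs, with medians of 27684 and 11705 UMIs, a Ptprc UMI was found in 6.93% and 1.07%, and in 0.564% and 0.0813% at 1000 UMIs per cell. Transcripts of CD45, by which cells were to be removed in the sort, were therefore above this background in the chosen cells of both libraries, and what share of the periosteum they make up cannot be read from sorted cells. Pecam1, which encodes CD31, was at 11.4 and 8.39 CPM in the chosen cells, with a ratio to other cells of 0.872 and 0.850.

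Genes were compared with other cells as the ratio of CPM, summed over cells, in each library. A gene was counted when its rate over all quality-passing cells would give at least 5 UMIs in the chosen cells of each library, which 7757 genes met. It was called higher at a ratio of 2 or more in both libraries and lower at 0.5 or less in both. By this rule 542 genes (6.99%) were higher and 909 (11.7%) were lower, and the median ratio of all counted genes was 0.930 in library 1 and 0.826 in library 2. These shares are the background for the counts of every gene list below. The counting rate includes the chosen cells, so some genes met the limit only through their UMIs there. By the rate of other cells alone, C1qa, C1qb, C1qc, Wfdc17, Pld4, Tlr2, Clec4e and Cfp would have stayed under it in library 2. Counts of higher genes are therefore in part set by this limit. Without the counting limit 1186 genes were higher and 692 lower, and against only those other cells with 3 or more Ptprc UMIs, 246 of the 542 and 242 of the 909 were called in the same direction. The calls are sizes, not tests, since the cells were chosen on their own RNA and there is 1 library per replicate.

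**Figure D1:**
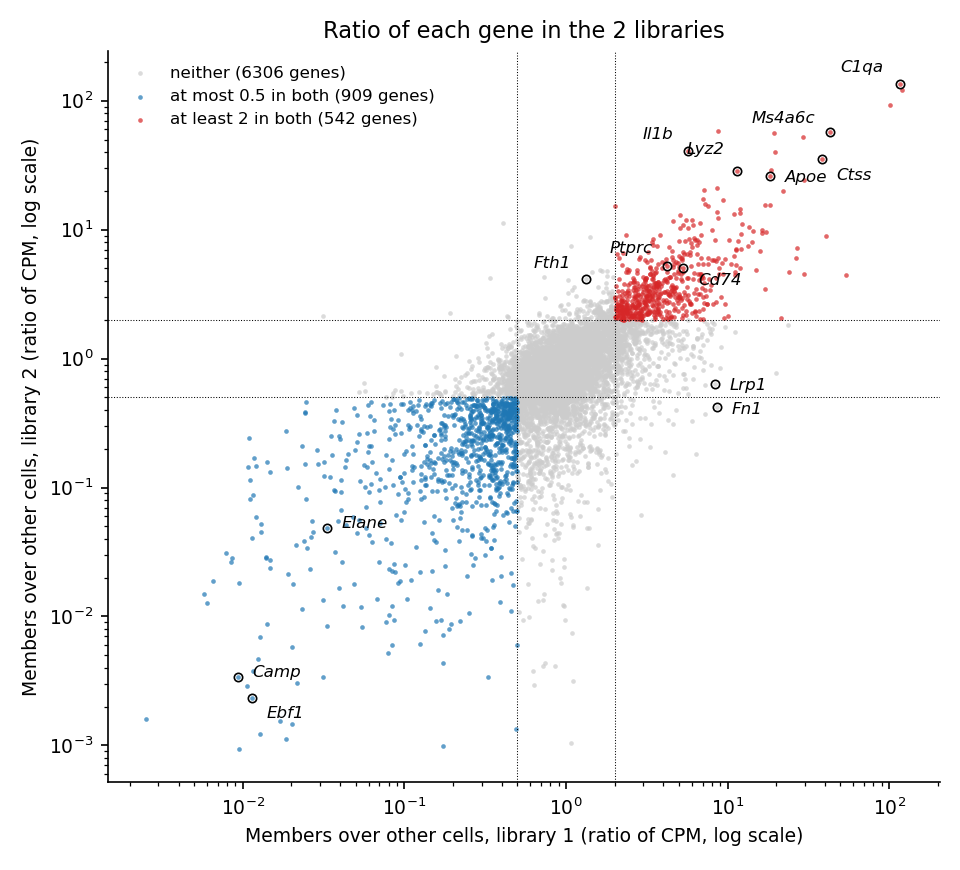
Ratio of CPM in the chosen cells over other cells for 7757 genes, library 1 on the horizontal and library 2 on the vertical axis, both on log scales. Red points (542) reached 2 or more in both libraries, blue points (909) 0.5 or less in both, and genes with 0 UMIs on one side are placed at a floor of 3 UMIs; C1qa and Ms4a6c sit at the upper right, and Lrp1 and Fn1 lie above 2 in library 1 alone.

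The highest ratios among counted genes belonged to the C1q genes, to proteins of the lysosome and to surface proteins of myeloid cells. In the smaller library, C1qa, C1qb, C1qc, Wfdc17, Pld4 and Cfp were counted only through their UMIs in the chosen cells, as given above. Their place in the ranking is thus in part set by the counting limit, and some uncounted genes, given below, had ratios as large. C1qa, C1qb and C1qc encode the chains of complement C1q. C1qb was at 293 and 837 CPM, a ratio of 120 (103–140) and 122 (103–145), but 6 of 163 and 10 of 40 chosen cells held its UMIs. With no UMI of Retnlg, Ltf, Elane or Cd79a allowed, the geometric mean of its ratio over the libraries was 78.7 in place of 121, and that of C1qa 81.4 in place of 126. The ratio of C1qb was 23.7 against only those other cells with 3 or more Ptprc UMIs and 54.9 as a mean of CPM per cell. Ms4a6c, a membrane protein of the MS4A family, was at 884 and 726 CPM, with ratios of 43.1 and 57.5. Ctss, the endosomal protease cathepsin S that trims the class II invariant chain, was at 774 and 1150 CPM, with ratios of 38.4 (36–41.1) and 35.5 (31.9–39.5), and was found in 161 of 163 and 40 of 40 cells. Unlike C1q, Ctss and Ms4a6c were thus spread over the chosen cells. Wfdc17 had ratios of 29.2 and 52.3 at 363 and 350 CPM, but cells with more than 1 Retnlg UMI, a set of mature neutrophils, held 305 and 735 CPM. Other genes with high ratios were Pld4 (29.7 and 24.4), Ly86 (18.3 and 15.4), whose product MD-1 partners the receptor RP105, and Cfp (11.9 and 14.4), the complement activator properdin.

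Other genes that hardly occur outside the chosen cells did not meet the counting limit, even where their ratio was large. Of the genes of the rule, whose ratios the choice of cells sets in part, Ccr2 had 81.3 and 124 and Csf1r 40.3 and 57.3. Msr1, the class A scavenger receptor, had 118 (78.2–181) and 187 (104–353). Adgre1, which encodes the macrophage antigen F4/80, was at 55.9 and 48.3 CPM and at 0.914 and 0.429 CPM in other cells, and its UMIs were in 74 of 163 and 14 of 40 chosen cells. Fcgr1, the high-affinity IgG receptor, had ratios of 102 (70.2–152) and 106 (34.9–354). These genes are left out of the counts of higher and lower genes.

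Phagocyte functions were covered by several lists, each given against the same background. Of 21 lysosome genes 20 were counted, 17 were higher and 0 lower, and their summed level was 9997 and 11286 CPM against 1744 and 2876 CPM in other cells. Psap, the precursor of the saposins that help break down sphingolipids, was at 2160 and 1375 CPM, with ratios of 16.3 and 9.35. Ctsc, which activates granule serine proteases, was at 525 and 716 CPM, with ratios of 21.9 and 19.9. The 3 counted lysosome genes that were not called were Lamp2, Ctsl and Cd63, and Cd63 had ratios of 0.433 and 0.628.

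Of 13 genes of Fc receptors, integrins and scavenger receptors 7 were counted and all 7 were higher. The signalling adaptors Tyrobp (2099 and 2688 CPM) and Fcer1g (1809 and 2153 CPM) had ratios of 7.04 and 7.24 in library 1 and of 17.3 and 15.8 in library 2. Sirpa, which receives the "do not eat me" signal of CD47, was at 209 and 187 CPM, with ratios of 10.9 and 13.2. Of 6 NADPH oxidase genes, the enzyme complex of the oxidative burst, 4 of 6 counted were higher. Its catalytic subunit Cybb was at 874 and 573 CPM, with ratios of 4.58 and 11.6, whereas the GTPase Rac2 was at 1.22 and 1.17 times its level in other cells.

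Genes that sense microbes or present antigen were also mostly among the higher genes. Of 12 sensing genes 7 were counted and 7 were higher, but Tlr2 and Clec4e were counted in library 2 only through their UMIs in the chosen cells. The lipopolysaccharide co-receptor Cd14 was at 163 and 850 CPM, with ratios of 19.8 and 39.8, and the lipoprotein receptor Tlr2 at 212 and 252 CPM, with ratios of 18.4 and 29.0. Clec4e, which encodes the glycolipid receptor Mincle, was at 105 and 481 CPM, with ratios of 8.68 and 58.2. Neutrophils carry these receptors too: in cells with more than 1 Retnlg UMI, the set of mature neutrophils named above, Cd14 was at 61.4 and 1463 CPM, Tlr2 at 147 and 581 CPM and Clec4e at 151 and 444 CPM. Library 2 was the higher of the libraries for all 3 receptors in both sets of cells. Of 10 antigen presentation genes 6 were counted and 6 were higher, and the class II invariant chain Cd74 had ratios of 5.33 and 5.03 although B-lineage cells are among the other cells. Class II genes were carried by few of the chosen cells, with H2-Aa UMIs in 23 of 163 and 5 of 40.

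**Figure D2:**
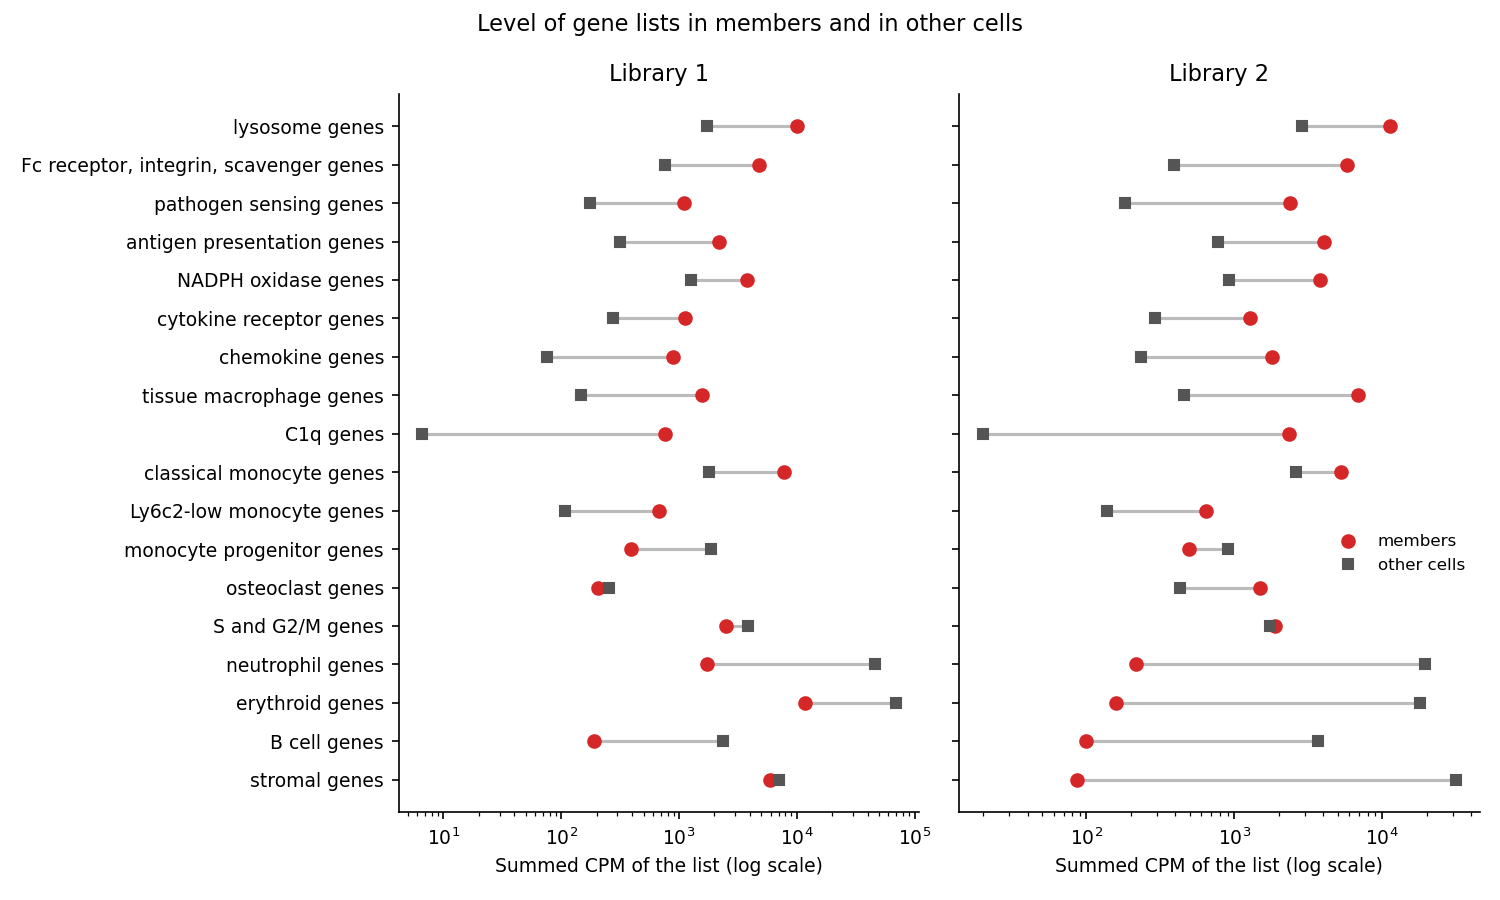
Summed CPM of 18 gene lists on a log axis, in the chosen cells (red circles, "members") and in other cells (gray squares), library 1 left and library 2 right. The lysosome list stands at 9997 and 11286 CPM in the chosen cells against 1744 and 2876 CPM in other cells, and the B cell list at 191 and 98.6 CPM against 2354 and 3683 CPM.

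Among ligands, 2 of 4 counted chemokine genes were higher, of 13 listed. Cxcl2, a neutrophil chemoattractant, was at 146 and 848 CPM, with 1 cell of library 2 giving 48.3% of its UMIs. Ccl3 was at 73.3 and 86.0 CPM, with ratios of 11.2 and 5.35. Of 16 cytokine and growth factor genes 7 were counted, 1 was higher and 1 lower. The higher one was Il1b, which encodes the inflammatory cytokine IL-1β, at 88.9 and 1114 CPM, and the lower one was Spp1, the matrix protein osteopontin, at 51.2 and 313 CPM with ratios of 0.0388 and 0.0550. Tgfb1 was at 263 and 296 CPM, with ratios of 1.82 and 1.87.

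Among receptors, 6 of 7 counted cytokine receptor genes were higher, of 12 listed. The α chain of the GM-CSF receptor, Csf2ra, had ratios of 5.11 and 10.3, and the TNF receptor Tnfrsf1b 16.2 and 10.0, whereas Tgfbr2 had 0.622 and 0.305. Cxcr4, the receptor that holds leukocytes in marrow, was the 1 counted gene of 6 chemokine receptors, at 371 and 472 CPM with ratios of 3.40 and 2.95. Cx3cr1, the fractalkine receptor of patrolling monocytes and resident macrophages, was at 52.9 and 86.0 CPM and was not counted. Of 9 complement genes 5 were counted and 2 were higher, C3 and Cfp.

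Of 17 myeloid transcription factor genes 10 were counted and 4 were higher. Spi1, which encodes PU.1, the factor that sets up the myeloid lineage, was at 343 and 447 CPM, with ratios of 2.87 and 6.11. Cebpb was at 1398 and 3803 CPM, with ratios of 12.0 and 13.6, but cells with more than 1 Retnlg UMI held 888 and 3063 CPM. Irf5 and Zeb2 were the other higher genes. Irf8, a factor that directs precursors toward monocytes, had a ratio of 3.42 (3.16–3.70) in library 1 and 0.586 (0.362–0.897) in library 2, and Klf4 had 8.95 and 0.847. The direction for Irf8 and Klf4 thus depended on the library. Of 13 interferon-stimulated genes 5 were counted, 3 were higher (Irf7 and Bst2 among them) and 1, Rsad2, was lower. Of 9 iron and heme genes 8 were counted, 2 were higher (Hmox1, heme oxygenase 1, and Ftl1, ferritin light chain) and 1 was lower (Blvrb, which reduces biliverdin). Fth1, ferritin heavy chain, had ratios of 1.33 and 4.18. Of 10 early response genes, which tissue dissociation can raise, Junb was higher and the other 9 were not called.

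The lowest ratios among counted genes belonged to cartilage, neutrophil and B cell genes: Snorc, Hapln1, Col10a1, Col9a2 and Acan of cartilage, Camp and Ngp of neutrophils, and Vpreb3, Ebf1 and Igkc of B cells. Igkc, the κ light chain, had 17 UMIs in the chosen cells of library 1 and 0 in library 2, where it was at least 144-fold lower than in other cells. By level, the leading genes of the chosen cells outside genes named mt-, Rpl or Rps were Lyz2, Tmsb4x, Actb, Fth1, Gm42418, Tmsb10, Fau (whose product includes a ribosomal protein), Ftl1, Malat1 and Tpt1, by the mean of both libraries and without regard to transcript length.

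Most counted markers of neutrophils, B cells and red cells were lower than in other cells, and their summed levels in the chosen cells were higher in library 1 than in library 2. Of 12 neutrophil genes 10 were counted and 8 were lower. The most abundant of them in the chosen cells, S100a8, was at 805 and 83.9 CPM there against 15018 and 7053 CPM in other cells. The B-lineage cells of library 1 were at 2892 CPM, but that set includes barcodes of the neutrophil-lineage sets, so this is not a level of free RNA. The granule genes Camp and Ngp had 122 and 84 UMIs in library 1 and 4 and 1 UMIs in library 2. All 9 B cell genes were lower, and Ms4a1 had no UMI in either library. Of 8 T and NK cell genes 3 were counted and lower, and Cd3e, Cd3d and Cd3g had no UMI. None of 5 endothelial genes or 4 megakaryocyte genes was counted, and Kdr, Emcn and Gp1bb had no UMI. Of 6 mast cell, basophil and eosinophil genes 2 were counted and lower. Of 10 conventional dendritic cell genes 2 were counted and lower, with Xcr1 at 0 UMIs, and of 8 plasmacytoid dendritic cell genes 4 were counted and 1, Ly6d, was lower. Of 8 progenitor genes 5 were counted and 2, Mpo and Ms4a3, were lower.

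Red cell and stromal transcripts in library 1 came largely from a few cells. All 8 erythroid genes were lower, with a summed level of 11743 and 159 CPM against 69023 and 18109 CPM in other cells. Of 11 stromal genes 6 were lower, with 5980 and 86.0 CPM summed. In library 1, 6 chosen cells had 100 or more Col1a1 UMIs or 1000 or more Hbb-bs UMIs, the chains of collagen I and β-globin, against 0 in library 2. Without these 6 cells the summed stromal level of library 1 was 78.8 CPM and the erythroid level 1493 CPM. Whether such barcodes held more than 1 cell was not tested for each of them.

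The chosen cells spread between 2 ends. The Ly6c2 end was set as 3 or more Ly6c2 UMIs with at most 1 UMI of C1qa, C1qb and C1qc together, and the C1q end as 3 or more C1q UMIs with at most 1 Ly6c2 UMI. In library 1, 129 cells (79.1%, 72.1–85.1) lay at the Ly6c2 end, 5 (3.07%, 1.00–7.01) at the C1q end and 29 at neither. In library 2 these numbers were 22 (55.0%, 38.5–70.7), 7 (17.5%, 7.34–32.8) and 11. The 12 cells of the C1q end had 0 Ly6c2 UMIs and between 61 and 833 C1q UMIs, so they stood far from the threshold of 3. In each library 1 cell carried 3 or more UMIs of both, with 10 Ly6c2 and 76 C1q UMIs in library 1 and 3 and 13 in library 2, and 1 cell of the Ly6c2 end of library 2 had 11 Ly6c2 UMIs and 1 C1q UMI. The C1q end held too few cells for counts of genes, and only levels are given.

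**Figure D3:**
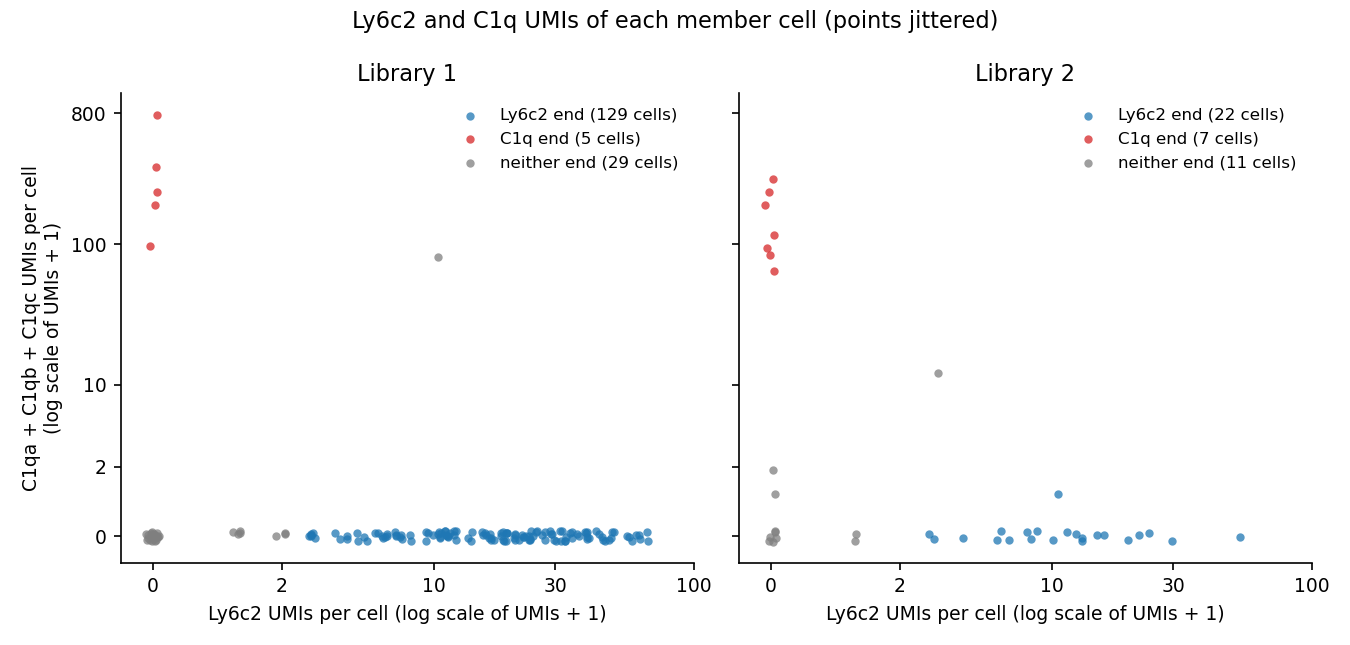
Ly6c2 UMIs (horizontal) and summed C1q UMIs (vertical) in each chosen cell, on log scales of UMIs + 1, with library 1 left and library 2 right and a point per cell, shifted slightly so that points do not hide each other. The cells line the axes: 129 and 22 along the Ly6c2 axis, 5 and 7 along the C1q axis, with 1 cell per library holding clear counts of both.

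The letters upstream of C1qb, C1qc and Ly6c2 are shown because these genes set the ends and their chromatin was not measured. C1qa also sets the C1q end, but no RefSeq window was available for it. Each window is the 250 bases before the RefSeq transcription start on GRCm38.p6, read 5′ to 3′ on the gene's own strand, which is the minus strand for all 3. C1qb lies at chr4:136886201-136886450, C1qc at chr4:136892915-136893164 and Ly6c2, the first of its 2 starts, at chr15:75111972-75112221. Capitals mark AGGAAGT or its reverse complement ACTTCCT, a form of the core that PU.1 binds.
C1qb: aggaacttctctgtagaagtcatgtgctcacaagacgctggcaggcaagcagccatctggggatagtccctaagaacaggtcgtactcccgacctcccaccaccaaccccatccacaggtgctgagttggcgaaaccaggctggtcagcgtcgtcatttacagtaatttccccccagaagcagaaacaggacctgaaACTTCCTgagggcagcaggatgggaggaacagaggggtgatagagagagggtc
C1qc: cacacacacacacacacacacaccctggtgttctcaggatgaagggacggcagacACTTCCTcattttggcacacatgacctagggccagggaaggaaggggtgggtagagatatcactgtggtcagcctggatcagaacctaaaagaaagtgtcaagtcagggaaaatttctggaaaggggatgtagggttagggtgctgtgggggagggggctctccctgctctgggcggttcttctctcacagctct
Ly6c2: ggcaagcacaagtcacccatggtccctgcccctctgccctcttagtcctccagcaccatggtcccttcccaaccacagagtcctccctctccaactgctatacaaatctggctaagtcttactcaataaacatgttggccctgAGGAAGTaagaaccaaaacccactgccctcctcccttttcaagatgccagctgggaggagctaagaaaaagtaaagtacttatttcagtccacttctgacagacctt
The first matched base lay 53, 195 and 107 bases before the start of C1qb, C1qc and Ly6c2, and a match also lay 100 bases before the start of Lyz2. The same letters were found in 7 of 17 genes of the rule or of the highest ratios that had a window, and in 7.69% of all 32851 windows of this length in the table. Taken per gene symbol, with a match in any of its windows, the share was 8.80% of 27025 symbols. A match is a run of letters and not a measured binding site. Genes of both ends held it, and Spi1 itself was at 336 and 334 CPM at the Ly6c2 end and at 445 and 537 CPM at the C1q end.

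Several genes of classical monocytes were high at the Ly6c2 end and low at the C1q end. Because the ends were set by Ly6c2 and C1q, the levels are a description. Plac8, a small cysteine-rich protein, was at 2253 and 2245 CPM at the Ly6c2 end, with 1 and 0 UMIs at the C1q end, a ratio of 223 (40.0–8803) in library 1 and at least 83.6-fold higher in library 2. Hp, the hemoglobin scavenger haptoglobin, was at 638 and 535 CPM against 20.2 and 8.95 CPM, which are 2 and 1 UMIs. Ifitm3, which blocks the entry of viruses, was at 2896 and 3669 CPM against 192 and 71.6 CPM. Chil3, a chitinase-like lectin, was at 1206 and 330 CPM against 10.1 and 26.9 CPM. Granulocyte precursors held more of some of these transcripts: Chil3 was at 6315 and 5311 CPM and Hp at 1155 and 1201 CPM in cells with 5 or more Ltf UMIs, and Prtn3, also among the genes of this end at 334 and 486 CPM, was at 8427 and 7967 CPM in cells with 5 or more Elane UMIs. At the Ly6c2 end the levels of Plac8 agree within counting error between libraries. Not all classical monocyte genes stood apart in this way, since S100a4 was at 2161 and 1901 CPM at the Ly6c2 end and at 597 and 1764 CPM at the C1q end. Other genes of this end were Lsp1, Napsa, Ramp1, Hopx, Emilin2 and Mgst1. Of 12 classical monocyte genes 11 were counted against other cells, 5 were higher (Plac8, F13a1, S100a4 and Hp among them) and 2 lower (Ly6a and Ly6c1). Fn1 and Vcan had ratios of 8.62 and 19.96 in library 1 and of 0.419 and 0.777 in library 2, where other cells had 1021 and 48.6 CPM against 107 and 4.79 CPM in library 1. Ly6c1, a neighbor of Ly6c2 with a near-identical sequence, had no UMI in the chosen cells, and reads that fit both genes may have been lost.

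Class II genes and Apoe were high at the C1q end. H2-Ab1, a chain of the class II molecule, was at 1820 and 1495 CPM there against 31.5 and 0 CPM at the Ly6c2 end, a ratio of 57.8 and at least 143-fold higher. H2-Eb1 was at 2245 and 1173 CPM against 13.4 and 0 CPM. Cd74 was at 6926 and 7288 CPM against 226 and 97.3 CPM, ratios of 30.6 and 74.9. Apoe, the lipid carrier apolipoprotein E, was at 11658 and 20629 CPM against 421 and 594 CPM, ratios of 27.7 and 34.7. Apoe was found in all 5 and all 7 cells of the C1q end, whereas the class II genes were spread unevenly in library 2. There, 1 cell gave 65.9% of the H2-Ab1 and 61.8% of the H2-Eb1 UMIs of the C1q end, and H2-Ab1, H2-Eb1 and Cd74 had UMIs in 5, 4 and 6 of the 7 cells. Hspa1a and Hspa1b were also among the genes of this end, but 1 cell gave all of their UMIs at the C1q end of library 1. Selenop was there as well, with 1 cell of library 1 giving 83.3% of its UMIs.

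Macrophage receptors outside the rule were also read at the ends. Mrc1, the mannose receptor, was at 506 and 107 CPM at the C1q end against 1.03 and 0 CPM, a ratio of 490 (129–4156) in library 1 and at least 10.3-fold higher in library 2. It was found in 3 of 5 and 3 of 7 cells of the C1q end, and 1 cell gave 74.0% and 66.7% of these UMIs. Adgre1 was at 283 and 98.5 CPM against 45.9 and 34.7 CPM. Levels of the rule genes at the ends were set in part by the choice of cells, since a cell without Ly6c2 had to carry 2 of Csf1r, Cd68 and Ccr2 and a cell with Ly6c2 only 1 of them. Csf1r was at 334 and 331 CPM against 139 and 79.9 CPM, and Cd68 at 647 and 761 CPM against 147 and 198 CPM. Ccr2 ran the other way, at 526 and 243 CPM at the Ly6c2 end and 111 and 62.7 CPM at the C1q end. Lyz2 was at 21604 and 21890 CPM at the Ly6c2 end and at 9424 and 23709 CPM at the C1q end, so the ends differed in library 1 and by little in library 2. Among 20 tissue macrophage genes 4 were counted against other cells and 1, Apoe, was higher. Lyve1 and Vsig4 had no UMI in library 1, and Vsig4 was at 188 CPM at the C1q end of library 2.

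**Figure D4:**
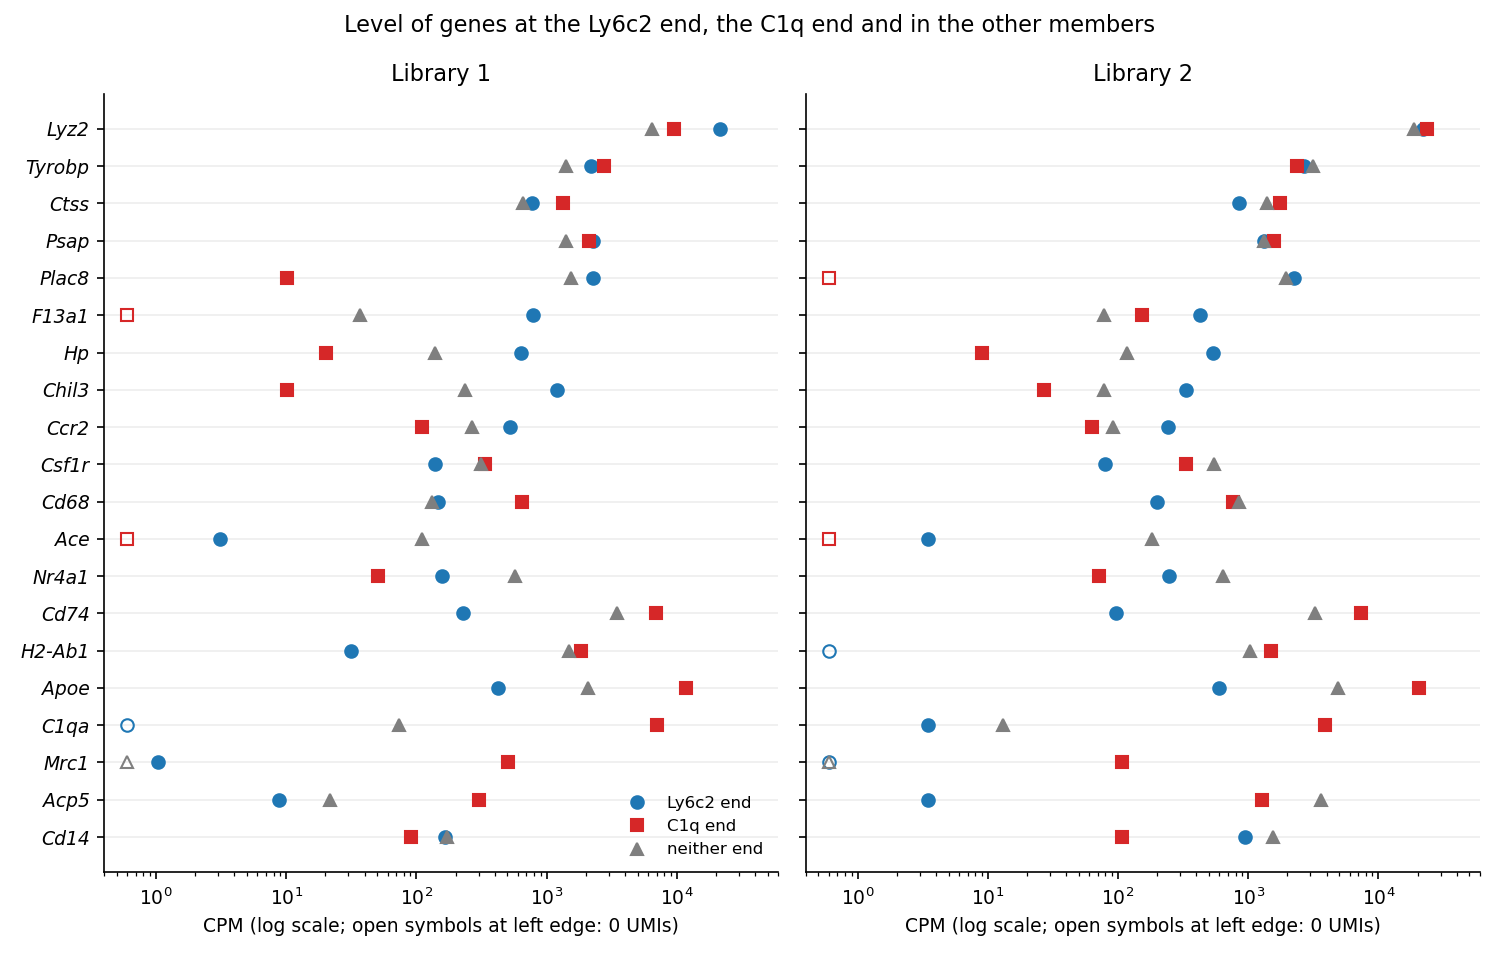
CPM of 20 genes on a log axis at the Ly6c2 end (blue circles), at the C1q end (red squares) and in cells at neither end (gray triangles), library 1 left and library 2 right, with open symbols at the left edge for 0 UMIs. Plac8 and Hp lie right for the blue circles and left for the red squares, Apoe and Mrc1 the other way, and Ace and Nr4a1 are rightmost for the gray triangles.

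Cells at neither end were not of 1 kind. Ace, which encodes the angiotensin-converting enzyme of patrolling monocytes, had UMIs in 18 of 29 such cells in library 1 and 6 of 11 in library 2. Its level was 111 and 182 CPM, against 3.10 and 3.47 CPM at the Ly6c2 end and no UMI at the C1q end. Over all cells at neither end, Nr4a1 was at 573 and 636 CPM against 156 and 247 CPM, and Csf1r at 311 and 545 CPM. In library 2, 1 cell without Ace held 21 Nr4a1 UMIs and another 9 Csf1r UMIs, against medians of 3 and 3.5 in cells with Ace. Cells with Ace held medians of 52.5 and 28.5 Lyz2 UMIs and of 5251 and 4739 UMIs in all. Ly6c2 and C1q were both at 0 UMIs in 21 of the 29 and 6 of the 11 cells. Of 11 genes of Ly6c2-low monocytes 3 were counted against other cells and 2, Nr4a1 and Pou2f2, were higher.

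Some cells at neither end, in part the same as those with Ace, stood apart by single gene groups. In library 1, 5 of the 29 had 50 or more Cd74 UMIs, 4 of them without Ace. Under 10 Lyz2 UMIs, close to the threshold of the rule, were held by 4 of the 5. Another 2 had 3290 and 4349 Col1a1 UMIs and 2 had 3100 and 3437 Hbb-bs UMIs, each of the latter with 1 Ace UMI. In library 2, 1 cell had 184 UMIs of Ctsk, the collagen-degrading protease of osteoclasts, 276 of Acp5, the osteoclast phosphatase TRAP, and 35 of Cd68, with 5 Lyz2 UMIs. That cell gave all Ctsk UMIs of the chosen cells of library 2 and 65.2% of the Acp5 UMIs. Of 15 osteoclast genes 6 were counted, 1 (Tcirg1, a subunit of the proton pump) was higher and 1 (Mmp9) lower, and Calcr and Siglec15 had no UMI in either library.

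C1q was not limited to the chosen cells. All quality-passing cells held 2378 and 1711 C1q UMIs, of which the chosen cells had 75.1% and 64.8%. A further 19 and 11 cells had 3 or more C1q UMIs but did not meet the rule. Of these, 3 and 3 had under 3 Lyz2 UMIs, 15 and 8 had a UMI of fewer than 2 lineage genes, and 4 and 2 failed the limits on the genes of other lineages alone. Their median totals were 4206 and 2898 UMIs. The C1q end is therefore a part of the C1q-bearing cells of each library.

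The nearest relatives in these libraries were granulocyte precursors and neutrophils, which were set by the genes on which the rule has its limits. All had 3 or more Lyz2 UMIs, and each cell was placed in 1 set. Cells with 5 or more Elane UMIs numbered 192 and 26, those of the rest with 5 or more Ltf UMIs 619 and 69, and those of the remainder with more than 1 Retnlg UMI 278 and 33. The first had medians of 38808 and 42163 UMIs, far above the chosen cells. Ctss was at 774 and 1150 CPM in the chosen cells, at 51.5 and 44.1 CPM in the Elane cells and at 14.9 and 17.0 CPM in the Ltf cells. Ccr2 was at 40.6 and 16.7 CPM in the Elane cells and at 2.71 and 1.06 CPM in the Ltf cells. Plac8 was at 2398 and 2996 CPM in the Elane cells, against 2059 and 1670 CPM in the chosen cells, and Ly6c2 was at 1131 and 1044 CPM there. Outside the rule genes, Plac8 was thus not lower in the Elane cells than in the chosen cells, and Ctss was much lower there. Mpo, a primary granule enzyme, was at 30.9 and 69.3 CPM in the chosen cells and at 4534 and 4872 CPM in the Elane cells. Spi1 was at 362 and 375 CPM in the Elane cells and at 471 and 526 CPM in the Ltf cells, against 343 and 447 CPM in the chosen cells.

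Transcripts of dividing cells were found at the Ly6c2 end in both libraries, whereas at the C1q end they rested on few cells. Of 15 S and G2/M genes all 15 were counted, 0 were higher and 1, Rrm2, was lower than in other cells. Mki67, a marker of cycling cells, was found in 79 of 163 and 10 of 40 chosen cells and in 37.7% and 25.2% of the B-lineage cells. At 1000 UMIs per cell it was in 15.2% and 7.35% of the chosen cells and 18.1% and 9.03% of the B-lineage cells. By end, these shares were 17.3% and 7.31% at the Ly6c2 end and 3.80% and 15.3% at the C1q end. In the Retnlg cells they were 4.81% and 0.77%, so the C1q end of library 1 did not lie above them. Summed over the list, the median cell of the Ly6c2 end was at 509 CPM (quartiles, 243–3886) in library 1 and at 362 CPM (123–1124) in library 2. Median cells of the C1q end were at 569 and 241 CPM, those at neither end at 186 and 128 CPM and the Elane cells at 3024 and 2625 CPM. The wide upper quartile shows that the list was carried by a share of the cells of the Ly6c2 end. Some cells of this end in library 1 held few Lyz2 UMIs, against a median of 338. Among them, 1 of 20176 UMIs had 4 Lyz2 UMIs and 3271 CPM of the list. Another of 74395 UMIs had 18 and 2957 CPM, whereas 1 of 6877 UMIs had 3 and 145 CPM. Whether such barcodes held more than 1 cell was not tested.

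Cells of the Ly6c2 end could be set side by side between the libraries, which are replicates of 1 condition. Lyz2, at 21604 and 21890 CPM, and Plac8, at 2253 and 2245 CPM, differed by less than counting error. Il1b was at 53.7 CPM in library 1 and 1053 CPM in library 2, a ratio of 19.6 (15.7–24.8), with UMIs in 39 of 129 and 15 of 22 cells. In other cells the same ratio was 1.75. Cd14 and Clec4e were 5.77 (4.89–6.80) and 5.50 (4.36–6.93) times higher in library 2, against 2.59 and 0.685 in other cells, and Osm, a cytokine of the IL-6 family, 3.71 (2.79–4.88) against 0.626. For these 4 genes the ratio at the Ly6c2 end lay above that of all other cells pooled, although 1 cell gave 32.0% of the Il1b UMIs of library 2. The shift was not limited to the chosen cells: in the Retnlg cells, which made up 4.43% of library 1 and 1.14% of library 2, Il1b was at 198 and 1445 CPM, Cd14 at 61.4 and 1463 CPM, Clec4e at 151 and 444 CPM and Osm at 99.3 and 290 CPM. For the chemokine gene Cxcl2 it did not, at 2.03 (1.46–2.79) against 2.35, but its 51 UMIs in library 2 lay in 3 cells, 1 of which gave 68.6%, and over all chosen cells its ratio was 5.82 (5.03–6.74). Irf8 was lower in library 2, at 34.7 against 260 CPM, a ratio of 0.134 (0.0637–0.248) against 0.884 in other cells. Ccr2 and Mki67 had ratios of 0.463 (0.358–0.590) and 0.419 (0.293–0.581), against 0.244 and 0.237 in other cells, so both genes were lower in library 2 in other cells as well. Hbb-bs and S100a9 had ratios of 0.0193 and 0.0160, against 0.272 and 0.352 in other cells. In library 1, however, 1 cell gave 57.2% of the Hbb-bs UMIs and 1 cell gave 37.0% of the S100a9 UMIs. Fos, an early response gene that tissue dissociation can raise, was also higher in library 2. Its ratio was 2.64 (2.29–3.03) at the Ly6c2 end and 7.92 in other cells. The part that handling, mice or depth had in these differences was not tested.

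**Figure D5:**
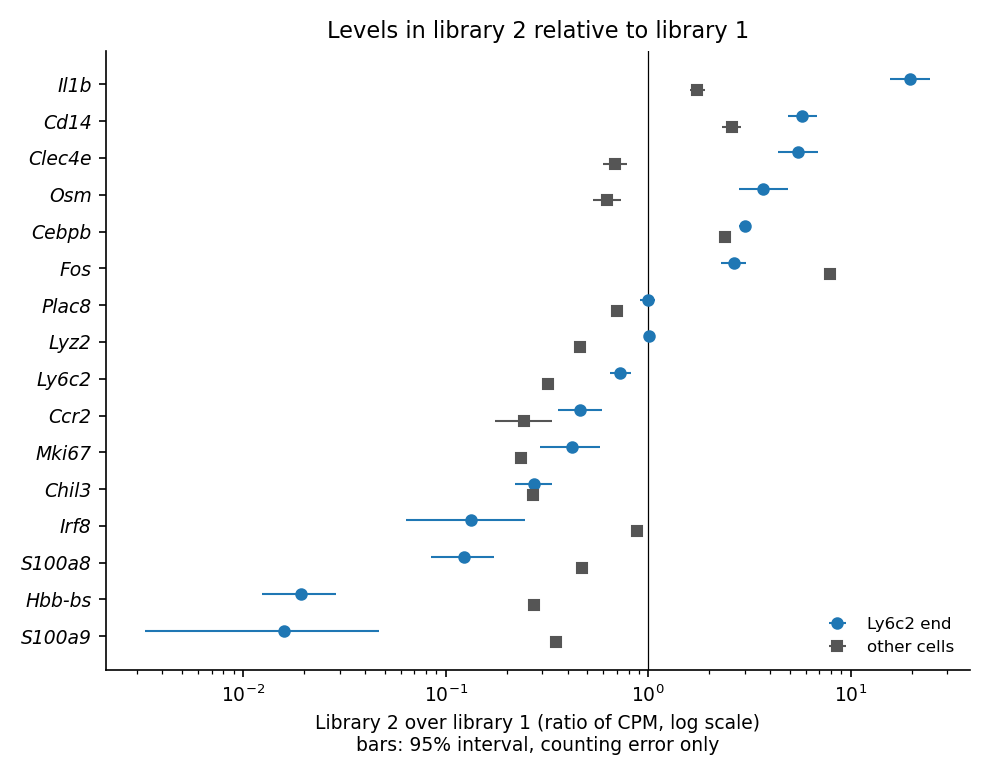
Level in library 2 over library 1 (ratio of CPM, log axis) for 16 genes, in cells of the Ly6c2 end and in other cells, with bars for the 95% interval from counting error. Il1b lies at 19.6 for the Ly6c2 end and 1.75 for other cells, Lyz2 and Plac8 lie at about 1 for the Ly6c2 end, and Irf8 lies at 0.134 against 0.884.

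The genes of the study's stem cell markers were read in the same cells. Lrp1, a large endocytic receptor that macrophages also carry, was at 102 and 92.3 CPM in the chosen cells, with UMIs in 65.0% and 45.0% of them. In B-lineage cells the share was 1.09% and 2.01%, and at 1000 UMIs per cell it was 12.1% and 10.9% of the chosen cells against 0.13% and 0.51% of the B-lineage cells. Its ratio to other cells was 8.39 (7.27–9.66) in library 1 and 0.639 (0.464–0.860) in library 2, where other cells had 12.1 and 144 CPM. Lrp1 was therefore at like levels in the chosen cells of both libraries, and the direction of the ratio turned with the other cells. It was at 96.5 and 90.3 CPM at the Ly6c2 end and at 80.9 and 98.5 CPM at the C1q end. Anpep, which encodes CD13, had UMIs in 0 of 163 chosen cells of library 1, which at 3 counts allows a share of cells with a UMI of up to 1.84% and sets no limit on cells that express it below detection, and in 4 of 40 of library 2, of which 3 lay at the C1q end.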

How the data were processed

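The 2 libraries of mouse periosteal cells were analysed from the count matrices that the authors deposited, whole-number UMI counts per gene and barcode, made with Cell Ranger 6.1.2 on mm10 according to the submitters' processing notes. Per-sample columns left unused numbered 0. Barcodes with at least 500 genes, at least 500 UMIs and at most 10% mitochondrial UMIs were kept, and no doublets were removed. Counts were summed over cells of a group, given as CPM of all UMIs of that group, and compared as ratios with exact conditional intervals (95%), exact binomial intervals for shares, and a floor of 3 counts where a group had 0. Python 3.11.15, NumPy 2.4.6, SciPy 1.17.1, pandas 2.3.3 and scanpy 1.11.5 were used. The leading genes were the 15 highest and 10 lowest ratios among counted genes, the 15 leading genes of each end, the 10 most abundant genes, and, of each list, its most abundant, highest-ratio and defining genes. Genes and cells named beyond these were chosen after their values were seen. Members and lists were chosen with earlier results of these data known. Of the listed genes, 2 are not analysed here. Some genes that were counted in the lists are not reported here by name. Sequences are from RefSeq.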

Additional observations from a re-analysis of the deposited data

Results flagged for a closer look

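In library 1, 7 barcodes outside the quality limits met the same marker rule, 6 of them over the mitochondrial limit and 1 under the gene limit, and library 2 had 0 such barcodes. They were singled out because they lie in barcodes that none of the comparisons used. The median of the 7 was 2626 UMIs with 15.1% mitochondrial UMIs, and they are 0.191% of the 3656 barcodes of library 1 that failed the limits.

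UMIs of tdTomato, a transgene that a wild-type animal lacks, numbered 65 in the chosen cells of library 1 and 19 in those of library 2. They were singled out because the labels give both libraries as wild type. The level was 27.5 and 39.9 CPM in the chosen cells and 15.8 and 152 CPM in other cells.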

How the results depend on the processing

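No paired analysis was possible because both libraries are of 1 group. The C1q end, with 5 and 7 cells, was too small for counts of genes. With no UMI of Retnlg, Ltf, Elane or Cd79a allowed, the rule chose 90 cells in library 1, of which 68 lay at the Ly6c2 end and 3 at the C1q end (for the ends, chosen after seeing the data). Under the other thresholds tried for the ends and without Scrublet's doublets, the cells at each end stayed within 1.5 times. Without the counting limit 1186 genes were higher and 692 lower, so 63.2% of calls were higher against 37.4%. Against only those other cells that had 3 or more Ptprc UMIs, an alternative chosen after seeing the data, 527 genes were higher and 487 lower (52.0% higher), of which 246 and 242 were called in the same direction against all other cells, Ptprc had a ratio of 0.877, by construction, and Acan had 1.57. As means of CPM per cell, 488 genes were higher and 1255 lower (28.0% higher), and 402 and 793 of them were called in the same direction by summed counts. Without library 1 there were 702 higher and 2092 lower of 7927 counted genes, and without library 2 there were 1607 and 2113 of 10945. In these counts 1 library alone had to reach both the ratio and the counting limit. Of 442 ratios of named genes to other cells under alternatives, 362 moved by less than 1 SD between libraries, 78 moved by more and 2 turned. No gene called in one direction was called in the other under any alternative. Scrublet marked 124 of 6276 barcodes (1.98%) in library 1, 4 of them chosen cells, and 1 of 2893 (0.0346%) in library 2, which is too few to have worked there. Over genes with 5 or more UMIs at both ends, the median ratio, Ly6c2 end over C1q end, was 0.860 and 0.877 (log2, -0.22 and -0.19), the shift that a median-of-ratios scaling makes, whereas over all 2430 genes that met the limit on counts it was 0.32 and 0.28 in log2. None of 30 named ratios between the ends turned under any alternative. At the C1q end, 1 UMI was worth about 10 CPM, so levels near that are counts of single molecules.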
